A study of Mus musculus with 6 samples.

Results

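The 2',5'-oligoadenylate synthetase (OAS) family was followed in immortalized mouse keratinocytes with and without the integrin subunit α3. Members were the 9 rows of the count table whose GENCODE M21 symbol was Oas1a, Oas1b, Oas1c, Oas1f, Oas1g, Oas2, Oas3, Oasl1 or Oasl2, out of 49315 genes in all. All 9 passed the low-count filter and stood among the 13704 genes tested. The 3A group (3 libraries) was the line MK-546-ha3A, in which human α3 had been put back into α3-null cells. The Control group (3 libraries) was the line MK-546, which lacks α3. Both lines grew without treatment on collagen-coated dishes in a low-calcium medium at reduced temperature. With 1 line per group, α3 status and line descent cannot be told apart. Separate cultures are not mentioned for the replicates, so the p-values cover the spread among these libraries, which may be technical.

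OAS enzymes bind double-stranded RNA and then join ATP into 2'-5'-linked oligoadenylates, called 2-5A. 2-5A is a second messenger that sets off the breakdown of viral and cellular RNA. Most OAS genes carry interferon-stimulated response elements and are induced when interferon binds its receptors on the cell. The mouse has several Oas1 copies where humans have a single OAS1, and keratinocytes, which form the skin barrier, are known to express OAS genes.

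Control 1 stood apart from the other Control libraries. Across genes, which are not independent replicates, Pearson r of log2 CPM (counts scaled by TMM library size to CPM) was 0.957 and 0.953 for Control 1 with Control 2 and 3, and 0.988 for Control 2 with Control 3. To a lesser degree 3A 1 stood apart in its group, at 0.985 and 0.982 with 3A 2 and 3A 3, against 0.994 for 3A 2 with 3A 3. Mitochondrially encoded genes held 1.24 to 1.59% of counts in 3A libraries, 1.17% in Control 1 and 4.19 and 4.73% in Control 2 and Control 3. Total counts were 34177002 to 36245240 in 3A libraries and 25634204 to 30919348 in Control libraries. Itga3 had 69.4 ± 11.5 CPM in 3A and 39.6 ± 6.84 CPM in Control (SD, n = 3 each), a count to which transgene reads may add and which does not check the deletion. All 9 keratinocyte markers listed were tested, with summed levels of 6670 to 8580 CPM in 3A and 9190 to 10700 CPM in Control, and 2 of them fell, Cdh3 and Trp63 (edgeR adjusted p = 0.0146 and 0.0491), where 7.39% of all genes were called lower. That count was 5 without Control 1, where 25.8% of all genes were called lower. It was 1 without 3A 1, where 654 of all genes were called lower. It was 0 without any of the other 4 libraries, where 318 to 489 were. Of 9 immune markers 3 were tested and 0 were called by edgeR (1 higher and 2 lower at an unadjusted p under 0.05, and 1 higher by DESeq2). Their summed levels were 18.9 to 24.3 CPM in 3A and 19.0 to 28.6 CPM in Control. Ptprc, which marks all leukocytes, averaged 0.0186 CPM in 3A and 0.0106 CPM in Control, and Adgre1 had 0 counts in every library. Summed fibroblast markers reached at most 3.40 CPM, endothelial markers 0.946 CPM and melanocyte markers 3.78 CPM in any library. Among these Pmel, a melanocyte marker, fell (edgeR adjusted p = 0.0436), a call lost without any library but Control 1, by library size alone, with no low-count filter and with the mitochondrial covariate. The part of any other cell type in the results was not tested.

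All members lie on chromosome 5 (GRCm38, the assembly of mm10). Oasl2 (114896936 to 114912234) and Oasl1 (114923240 to 114937915) form a pair on the plus strand. The other 7 members sit in a second cluster, which runs from Oas2 (120730333 to 120749853, minus strand) and Oas3 (120753098 to 120777661, minus) through Oas1c (120800194 to 120812514, minus), Oas1b (120812635 to 120824163, plus), Oas1f (120847367 to 120857986, plus) and Oas1g (120876142 to 120887613, minus) to Oas1a (120896256 to 120907521, minus). Oas1c and Oas1b point away from each other with 120 bases between their starts.

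RefSeq promoter windows (GRCm38.p6, 250 bases before to 50 after the annotated start) were at hand for 7 members and were searched on both strands for the core of the interferon-stimulated response element, GAAA followed after any 2 bases by another GAAA. A match was found in 4 of the 7, Oas1a, Oas1g, Oas3 and Oas1c, and in 3.44% of all 32851 mouse windows. Of the 32 other interferon-stimulated genes below that had a window, 14 held a match. The stretches around the matches are printed because the same core stands in windows of members that fell (Oas1a, Oas1g and Oas3) and of 1 that was not called (Oas1c). No match stood in the windows of Oasl2, which fell, or of Oasl1 and Oas1f, which were not called. The match in the Oas1c window also lies beside the start of Oas1b, which fell and, like Oas2, had no window of its own. Each is written 5' to 3' on the gene's own strand, with the matched bases in capitals, and where 2 matches overlap the capitals cover both.
Oas1a (chr5:120907510-120907565, minus strand): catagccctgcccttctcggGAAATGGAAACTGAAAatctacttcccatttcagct
Oas1g (chr5:120887596-120887651, minus strand): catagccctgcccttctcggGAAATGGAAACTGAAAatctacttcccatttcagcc
Oas3 (chr5:120777705-120777754, minus strand): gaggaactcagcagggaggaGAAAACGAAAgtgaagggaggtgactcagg
Oas1c (chr5:120812593-120812648, minus strand): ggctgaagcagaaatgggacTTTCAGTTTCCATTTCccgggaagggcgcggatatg

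Oas1a, Oas1g and Oas1c shared the whole matched run, which in Oas1c stands as its reverse complement. The 300-base windows of Oas1a and Oas1g were 87.0% identical. In the Oas1c window the run lies in the gap between the diverging genes, 98 bases from the start of Oas1c and 6 bases from that of Oas1b. On the strand of Oas1b it reads as in Oas1a and Oas1g. A match is a description of the letters and not a shown binding site.

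OAS mRNA was lower in 3A than in Control for most of the family. In edgeR's quasi-likelihood test, adjusted by Benjamini-Hochberg over all tested genes, 6 of 9 members fell, Oas2, Oas3, Oas1g, Oas1b, Oasl2 and Oas1a, where 7.39% of all genes were called lower. None rose (0 at an unadjusted p under 0.05, and 0 by DESeq2 and by limma-voom), where 7.52% of all genes were called higher. The median log2 fold change was -0.94 over the members and -0.016 over all tested genes. In those 6 members every 3A library lay below every Control library, which held for 17.6% of tested genes. Without Control 1 the same 6 were called, where 25.8% of genes were called lower and 26.2% higher. Without 3A 1, which held the highest 3A level of every called member but Oas2, 6 members were called. In that setting 654 of all genes were called lower, against 1013 with all libraries. Without Control 2, Control 3, 3A 2 or 3A 3, 2 or 3 members remained called, and Oas2 and Oas3 were among them each time. Scaled by library size alone, Oas1a and Oas1b were not called (edgeR adjusted p = 0.0604 and 0.0675), and with no low-count filter Oas1a was not (edgeR adjusted p = 0.0721). In bulk RNA, fewer cells making a transcript and less transcript per cell cannot be told apart.

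Summed over the 9 members, OAS reads made up 440.3, 353 and 359 CPM in 3A 1, 2 and 3, against 745, 807 and 789.8 CPM in Control 1, 2 and 3. The groups did not overlap, and the mean of 3A was 0.492 of that of Control (two-sided exact permutation p = 0.1, the smallest that 3 against 3 libraries can give).

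**Figure D1:**
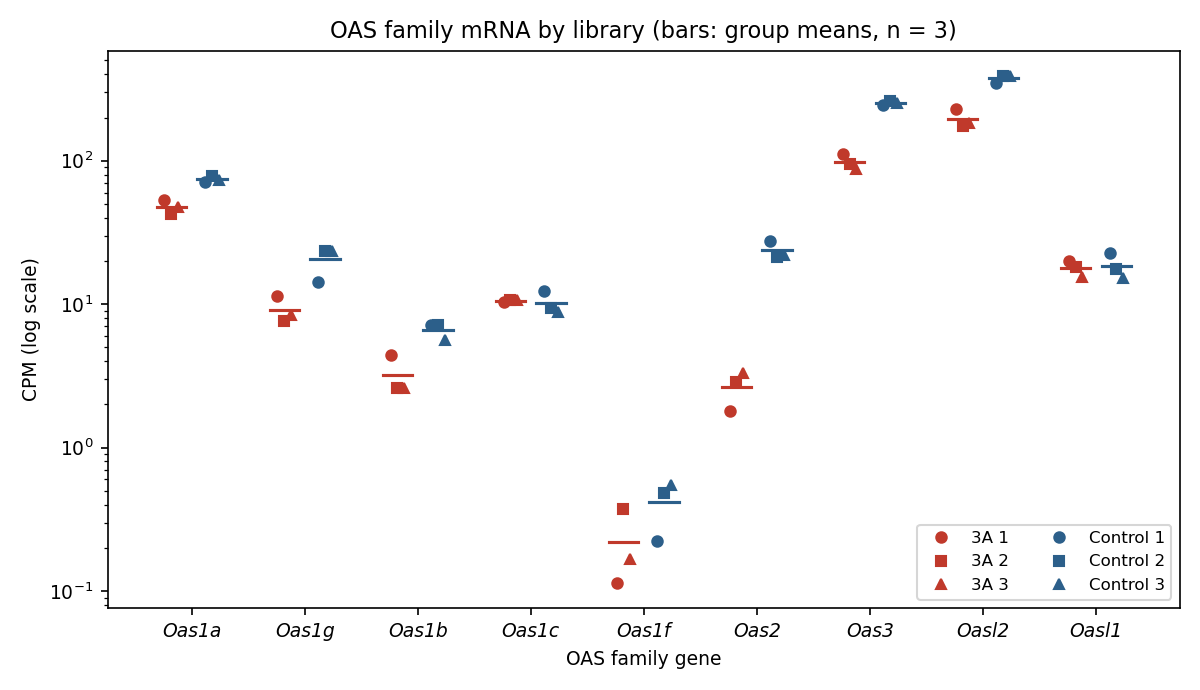
CPM on a log axis for each OAS gene, with 3A libraries in red on the left and Control libraries in blue on the right of each gene, 1 point per library and bars at the group means. The groups are separate for Oas1a, Oas1g, Oas1b, Oas2, Oas3 and Oasl2 and overlap for Oas1c, Oas1f and Oasl1.

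Oas2, a larger synthetase with tandem OAS domains, changed the most among the members. It had 1.81, 2.85 and 3.29 CPM in 3A 1, 2 and 3 (63, 107 and 118 counts), against 27.6, 21.3 and 22.1 CPM in Control 1, 2 and 3 (871, 624 and 520 counts). All 3A libraries lay far below all Control libraries. Its log2 fold change came to -3.16 (SE 0.27, 95% confidence interval -3.78 to -2.54, edgeR adjusted p = 0.000774), which puts 3A at 0.112 of Control. The call held when each library was left out in turn, with log2 fold changes from -3.33 to -2.94.

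Oas3, which also carries several OAS domains and in human cells is the main producer of 2-5A during viral infection, had 111, 94.4 and 88.1 CPM in 3A 1, 2 and 3, against 244, 261 and 252 CPM in Control 1, 2 and 3. Control 1 lay close to the other Control libraries, and all 3 were above every 3A library. The fall measured -1.37 on the log2 scale (SE 0.15, edgeR adjusted p = 0.00186). The call held without any 1 library, with log2 fold changes from -1.46 to -1.29.

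Oas1a and Oas1g encode enzymatically active synthetases. Oas1a had 53.6, 42.6 and 47.3 CPM in 3A 1, 2 and 3, against 70.8, 78.4 and 73.2 CPM in Control 1, 2 and 3. It was lower in every 3A library, with the smallest change among the called members (log2 fold change -0.63, SE 0.15, edgeR adjusted p = 0.0317). Oas1g had 11.3, 7.65 and 8.44 CPM in 3A 1, 2 and 3, against 14.3, 23.5 and 23.6 CPM in Control 1, 2 and 3. Control 1 lay between 3A 1 and the other Control libraries for this gene. The log2 difference for Oas1g was -1.17 (SE 0.26, edgeR adjusted p = 0.0264). It was -1.36 without Control 1 (edgeR adjusted p = 0.00136) and -0.68 with the mitochondrial share as a covariate, a fit added after seeing the data (edgeR adjusted p = 0.0479). Neither gene was called without 3A 2, 3A 3, Control 2 or Control 3 (edgeR adjusted p from 0.0938 to 0.18 for Oas1a and from 0.0839 to 0.126 for Oas1g). The 2 genes are near-identical in part. Of the distinct 100-base stretches of their annotated transcripts, 40.9% of those of Oas1a and 31.3% of those of Oas1g occur in the other gene. The shares were 57.6 and 45.2% for 50-base stretches and 32.4 and 24.1% for 150-base stretches, and the read length is not given. Since the sources do not say how such reads were counted, each gene's count is uncertain.

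Oas1b, annotated as a polymorphic pseudogene, is known in mice for resistance to flaviviruses, and most laboratory strains carry a truncated form. It had 4.44, 2.58 and 2.62 CPM in 3A 1, 2 and 3, against 7.16, 7.11 and 5.65 CPM in Control 1, 2 and 3. The groups did not overlap, with 3A 1 nearest to Control 3. In log2 terms Oas1b changed by -1.05 (SE 0.28, edgeR adjusted p = 0.046). Without 3A 2, 3A 3, Control 2 or Control 3 the gene was not called (edgeR adjusted p from 0.081 to 0.192).

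Oas1c, its divergent neighbour, had 10.3, 10.8 and 10.7 CPM in 3A 1, 2 and 3, against 12.3, 9.36 and 8.83 CPM in Control 1, 2 and 3. The 3A libraries lay inside the Control range. The log2 fold change of 0.06 was not called (95% confidence interval -0.37 to 0.49, edgeR adjusted p = 0.836), and its sign turned without Control 2 or without Control 3. Oas1f was near the detection limit, with 4, 14 and 6 counts in 3A 1, 2 and 3 and 7, 14 and 13 counts in Control 1, 2 and 3. Its log2 fold change of -0.89 was not called (95% confidence interval -2.23 to 0.44, edgeR adjusted p = 0.294), so a difference was not detectable at this depth.

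Oasl2 and Oasl1 encode OAS-like proteins that end in ubiquitin-like domains. In the mouse Oasl2 keeps synthetase activity, whereas Oasl1 lacks it and represses translation of Irf7 mRNA. Oasl2 had 228, 174 and 183 CPM in 3A 1, 2 and 3, against 346, 388 and 389 CPM in Control 1, 2 and 3. All 3A libraries were well below all Control libraries (-0.94 on the log2 scale with an SE of 0.16, edgeR adjusted p = 0.0105). It was not called without 3A 2, 3A 3 or Control 2 (edgeR adjusted p from 0.0528 to 0.0813). Oasl1 had 20.1, 18.01 and 15.4 CPM in 3A 1, 2 and 3, against 22.9, 17.5 and 15.2 CPM in Control 1, 2 and 3. The groups overlapped almost wholly, and the log2 fold change of -0.06 was not called (95% confidence interval -0.53 to 0.42, edgeR adjusted p = 0.865). Its sign turned with scaling by library size alone, without 3A 3 and without Control 1.

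**Figure D2:**
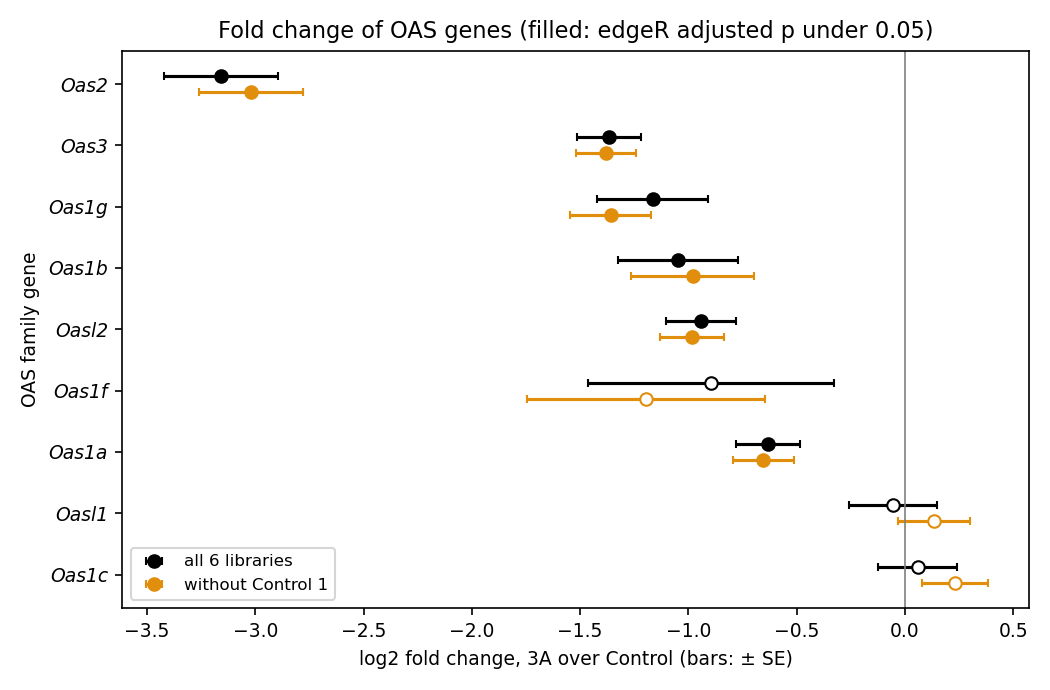
Log2 fold change of each OAS gene, 3A over Control, with bars of 1 SE, from all 6 libraries in black and without Control 1 in orange; filled points have an edgeR adjusted p under 0.05. Oas2 lies lowest and Oas1c highest with and without Control 1, and the same 6 genes are filled in both.

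Neighbouring members were set against each other within each library, which leaves library scaling out of the comparison. Reads of Oas2 for each read of Oas3 numbered 0.0163, 0.0302 and 0.0373 in 3A 1, 2 and 3, against 0.113, 0.0817 and 0.0877 in Control 1, 2 and 3. Reads of Oas1b for each read of Oas1c numbered 0.429, 0.24 and 0.245 in 3A, against 0.582, 0.759 and 0.639 in Control. Reads of Oasl2 for each read of Oasl1 numbered 11.3, 9.67 and 11.9 in 3A, against 15.1, 22.2 and 25.6 in Control. In these 3 pairs the ratio was lower in every 3A library than in every Control library. The differences in mean log2 ratio were -1.82 for Oas2 to Oas3, -1.16 for Oas1b to Oas1c and -0.91 for Oasl2 to Oasl1. Each had a two-sided exact permutation p = 0.1, the smallest possible, and 0.133 after adjustment over the 4 pairs compared, so an unequal change within a pair is not established by this test. For the near-identical Oas1g and Oas1a the ratio overlapped, at 0.211, 0.179 and 0.179 in 3A and 0.202, 0.3 and 0.323 in Control, with Control 1 inside the 3A range (exact permutation p = 0.2).

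**Figure D3:**
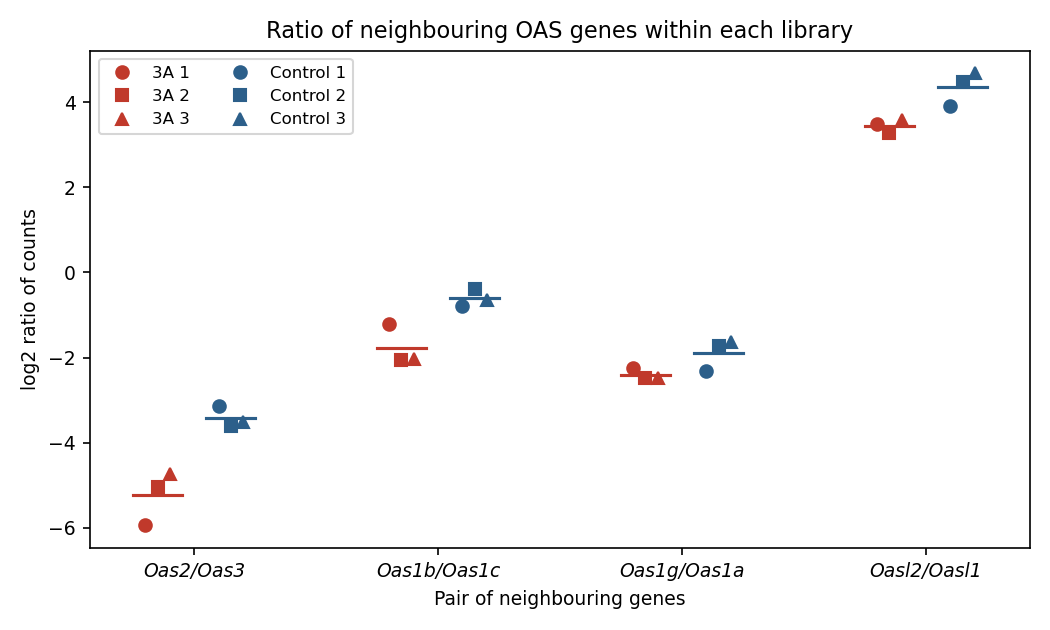
Log2 ratio of the counts of neighbouring OAS genes in each library, 3A in red on the left and Control in blue on the right, with bars at the group means. The Oas2/Oas3, Oas1b/Oas1c and Oasl2/Oasl1 ratios are lower in every 3A library than in every Control library, and the Oas1g/Oas1a ratios overlap.

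Levels of different members were compared per length, as the count divided by the union of annotated exons and given as a share of the family in the same library. In both groups Oasl2, Oas1a and Oas3 led. In 3A they averaged 35.0, 29.1 and 15.9%, and in Control 36.1, 24.2 and 21.9%, and in neither group did the libraries of these 3 genes overlap. Below them the order in 3A was Oasl1 (7.84%), Oas1c (5.10%), Oas1g (4.44%), Oas1b (1.82%), Oas2 (0.701%) and Oas1f (0.177%), with Oas1c and Oas1g overlapping between libraries. In Control it was Oas1g (5.36%), Oasl1 (4.39%), Oas2 (3.28%), Oas1c (2.61%), Oas1b (2.05%) and Oas1f (0.172%). There the libraries of Oas1g and Oasl1, of Oas1g and Oas2, of Oasl1 and Oas2, of Oas2 and Oas1c, and of Oas1c and Oas1b overlapped. Oasl1 and Oas1c, which were not called, took larger shares of the family in every 3A library than in any Control library, at 7.16 to 8.62% against 3.57 to 5.61% for Oasl1 and at 4.33 to 5.59% against 2.25 to 3.27% for Oas1c. The same held for Oas1a, which was called lower, at 28.2 to 30.4% against 23.8 to 24.6%. A share can grow where other members fall more.

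Genes around the 2 clusters were counted in the same way. Of 41 tested genes that are no members and lie within 500 kb of one, 1 rose and 3 fell, or 7.32% lower, near the background of 7.39%. The riser was Acads, a short-chain acyl-CoA dehydrogenase gene (log2 fold change 0.63, edgeR adjusted p = 0.0233), 172 kb from Oasl1. The genes that fell were Slc8b1, a mitochondrial sodium-calcium exchanger gene 196 kb from Oas2 (-0.77, adjusted p = 0.0145), Gm42655 (-1.97, adjusted p = 0.0243) and Trafd1 (-0.51, adjusted p = 0.0475), at 474 and 464 kb from the nearest member. The tested genes nearest to the clusters, 2210016L21Rik at 4.2 kb from Oasl1 and Rph3a at 33.0 kb from Oas1a, had log2 fold changes of -0.38 and 0.69 and were not called (adjusted p = 0.412 and 0.237). Leaving out Control 1 gave 6 higher and 14 lower neighbours, where 26.2% of all genes were higher and 25.8% lower. Leaving out any of the other libraries gave 0 higher and 0 to 2 lower. There 346 to 640 of all genes were higher and 318 to 654 lower.

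**Figure D4:**
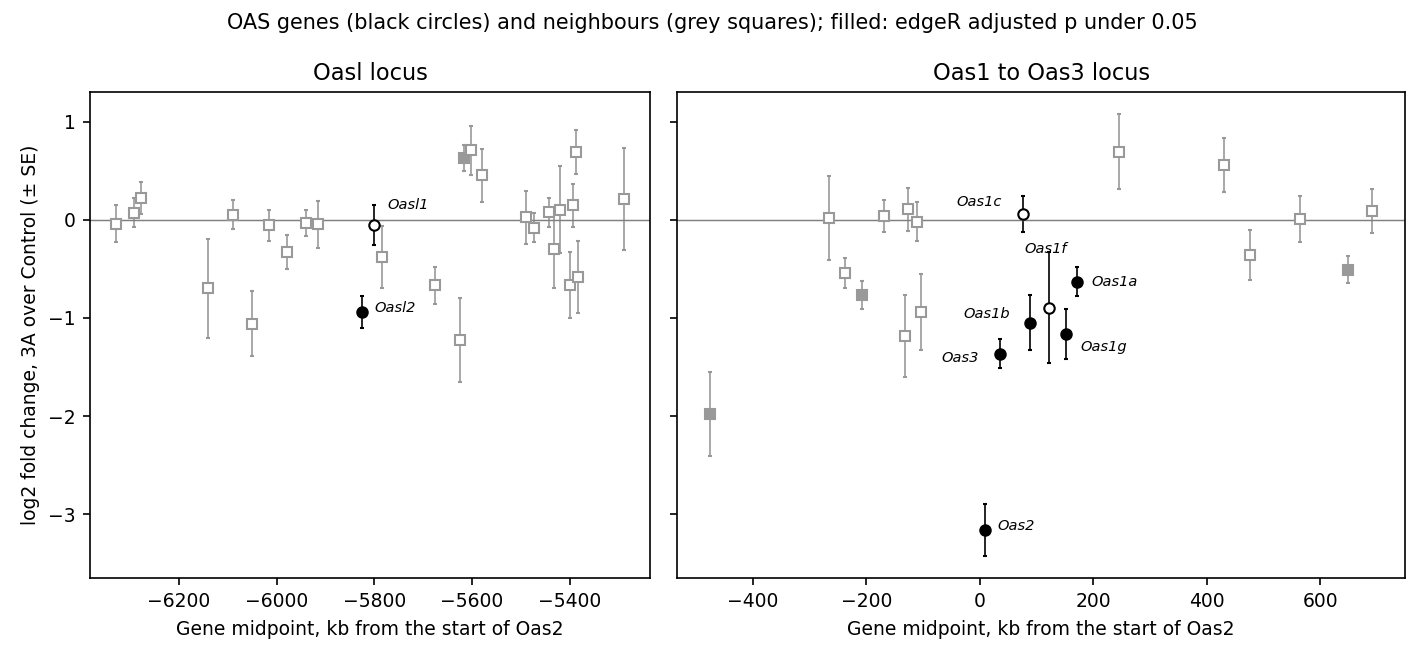
Log2 fold change, 3A over Control, with bars of 1 SE, against the gene midpoint in kb from the start of Oas2, for OAS genes (black circles) and tested neighbours within 500 kb (grey squares), in the Oasl cluster on the left and the Oas1 to Oas3 cluster on the right; filled points have an edgeR adjusted p under 0.05. Oas2 at -3.16 is the lowest point, and Oas1c and Oasl1 lie at the zero line beside members that fell.

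Genes known to act on 2-5A or its pathway were read beside the synthetases. Pde12 and Akap7, which encode enzymes that break down 2-5A, had log2 fold changes of 0.22 and -0.22 and were not called (edgeR adjusted p = 0.288 and 0.489). Abce1, best known for ribosome recycling, had 419.5 ± 45.8 CPM in 3A and 312 ± 15.3 CPM in Control (SD, n = 3 each), a log2 fold change of 0.43 that was not called (edgeR adjusted p = 0.0944, unadjusted p = 0.0229). DESeq2, which called 1678 of all genes higher, called 1 gene of this list higher. Without Control 1, where 26.2% of all genes were called higher, edgeR also called 1.

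Among 19 genes of interferon receptors and signalling, 5 fell and 0 rose by edgeR (0 higher and 9 lower at an unadjusted p under 0.05, 0 higher and 7 lower by DESeq2). By edgeR adjusted p, 7.39% of all genes were called lower and 7.52% higher. DESeq2 called more genes, 1678 higher and 1887 lower, and the share at an unadjusted p under 0.05 was not counted over all genes. The list's median log2 fold change was -0.33. Irf7, which drives interferon genes and is itself interferon-induced, had 88.3, 68.8 and 72.8 CPM in 3A 1, 2 and 3, against 180.4, 256 and 257 CPM in Control 1, 2 and 3 (-1.59 on the log2 scale with an SE of 0.20, edgeR adjusted p = 0.00325). Every 3A library was below every Control library, with Control 1 the lowest of its group. The other 4 were the interferon-gamma receptor gene Ifngr1 (-0.92), the factor gene Irf2 (-0.96), Stat2 (-0.53) and the type I interferon receptor gene Ifnar2 (-0.78), named after its values were seen. Stat2, which encodes a transcription factor of type I interferon signalling, had 108 ± 3.07 CPM in 3A and 157 ± 9.29 CPM in Control (SD, n = 3 each). Irf9, whose protein binds DNA together with STAT2, had 72.1 ± 5.50 CPM in 3A and 80.8 ± 27.2 CPM in Control (SD, n = 3 each). Irf9 was not called (edgeR adjusted p = 0.648), nor were Irf1 and Usp18, with log2 fold changes of -0.20 and -0.42 (adjusted p = 0.525 and 0.098). Leaving out Control 1 gave 9 lower, where 25.8% of all genes were lower. Leaving out any of the other libraries gave 1 to 3, where 318 to 654 of all genes were lower.

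No interferon gene reached the low-count filter. Of 10 listed, Ifnk, Ifna1, Ifna5 and Ifng had 0 counts in every library. Ifnb1, the most frequent, had 2, 0 and 5 counts in 3A 1, 2 and 3, against 14, 10 and 6 counts in Control 1, 2 and 3. Summed over the list the level was 0 to 0.167 CPM in 3A and 0.382 to 0.82 CPM in Control, a few reads per library that were not tested.

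Of 40 other interferon-stimulated genes, 11 fell and 1 rose, where 7.39% of all genes were called lower and 7.52% higher, and the median log2 fold change was -0.52. The 4 with the smallest p among those that fell were Ifit3 (-2.89), Ifi27l2a (-3.80), Ifit3b (-2.06) and Mx1 (-3.17), with edgeR adjusted p between 0.000452 and 0.00331. Isg15, a ubiquitin-like modifier gene, fell to 148 ± 36.9 CPM in 3A, against 546 ± 302 CPM in Control (SD, n = 3; log2 fold change -1.88, edgeR adjusted p = 0.0376). For this gene Control 1, at 212.7 CPM, lay nearer to 3A 1, at 188.5 CPM, than to Control 2 and Control 3, at 623.6 and 802.3 CPM. Iigp1, an interferon-inducible GTPase gene named after its values were seen, was the riser, with 1719 ± 147 CPM in 3A and 874 ± 132 CPM in Control (SD, n = 3 each; edgeR adjusted p = 0.0134). Leaving out Control 1 gave 6 higher and 23 lower, where 26.2% of all genes were higher and 25.8% lower. Leaving out any of the others gave 0 or 1 higher and 5 to 9 lower. There 346 to 640 of all genes were higher and 318 to 654 lower.

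Of 10 sensors of foreign nucleic acid, 2 were called higher and 1 lower, where 7.52% of all genes were called higher and 7.39% lower, and with 10 genes these counts lie near that background. Dhx58, which encodes the RNA helicase LGP2, had 1.85 ± 0.528 CPM in 3A and 30.3 ± 2.25 CPM in Control (SD, n = 3; log2 fold change -4.03, edgeR adjusted p = 0.000318). Tlr3, an endosomal receptor for double-stranded RNA, rose by 0.88 on the log2 scale (adjusted p = 0.0155). Cgas, which encodes a DNA sensor related to the OAS enzymes in structure, rose, with 1.79 ± 0.284 CPM in 3A and 0.0467 ± 0.0151 CPM in Control (SD, n = 3 each; edgeR adjusted p = 0.00064). The cytosolic RNA sensor genes Ddx58 and Ifih1 had log2 fold changes of 0.17 and -0.08 and were not called (adjusted p = 0.521 and 0.836). Leaving out Control 1 gave 4 higher and 2 lower (26.2 and 25.8% of all genes). Leaving out 3A 3, Control 2 or Control 3 gave 1 higher and 1 lower. There 351 to 498 of all genes were higher and 319 to 489 lower.

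**Figure D5:**
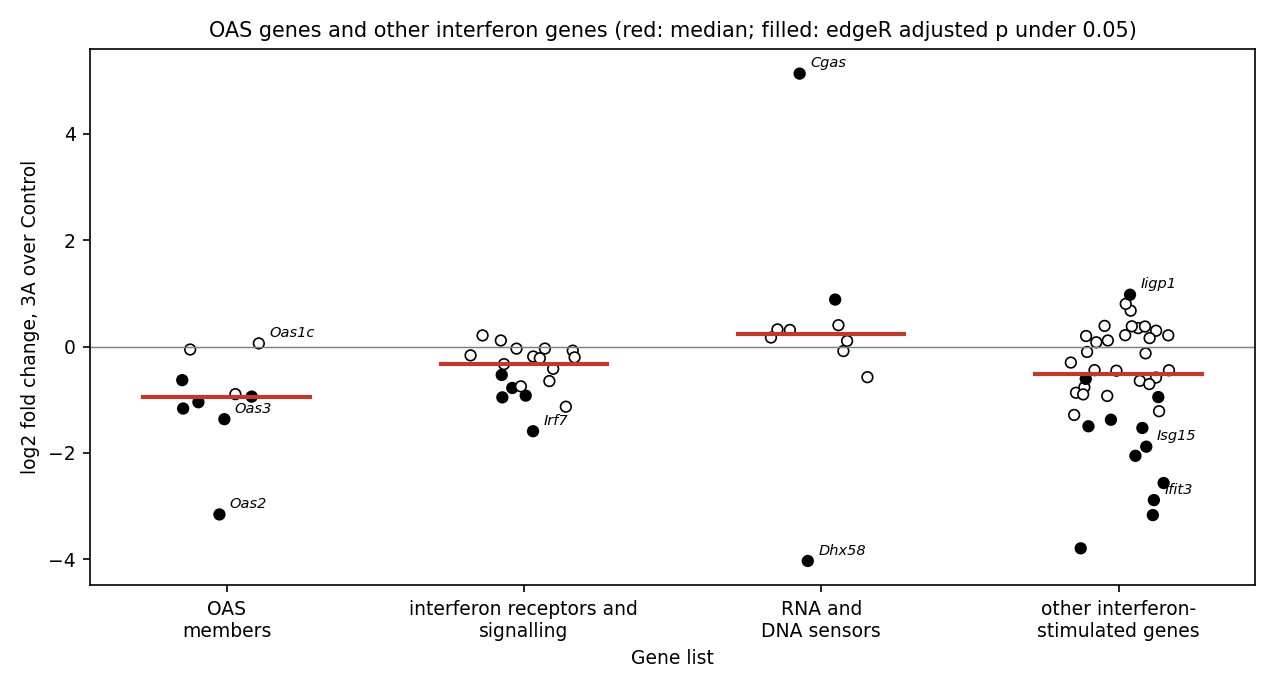
Log2 fold change, 3A over Control, of the OAS genes and of the other interferon lists, with 1 point per tested gene, filled at an edgeR adjusted p under 0.05, and the list median in red. The OAS median of -0.94 is below the medians of the signalling genes (-0.33), the sensors (0.24) and the other interferon-stimulated genes (-0.52).

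The genes whose pattern over the 6 libraries was most like the family's were ranked by Pearson r between their log2 CPM and the mean of the members' centred log2 CPM, among 10017 other genes with at least 5 CPM on average. The 5 nearest were Sh3glb1, Bcam, Nrg2, Ankrd13d and Pstk (r from 0.997 to 0.998), and 378 genes passed r = 0.95. These 6 points share 2 groups, so any gene that separates the groups and varies little within them scores high. A high r does not mean a fall of like size. Sh3glb1, the nearest, had 197 ± 1.98 CPM in 3A and 236 ± 2.51 CPM in Control (SD, n = 3 each). Its log2 fold change of -0.26 was not called (edgeR adjusted p = 0.192), whereas Bcam, Nrg2, Ankrd13d and Pstk were called lower. Bcam had 25.9 ± 1.75 CPM in 3A and 69.9 ± 3.40 CPM in Control, and Nrg2 had 6.79 ± 0.492 CPM in 3A and 42.9 ± 7.48 CPM in Control (SD, n = 3 each). Within the family, Oas3 lay nearest to the mean pattern (r = 0.996), and Oasl1 and Oas1c were farthest from it (r = 0.106 and -0.295). Each member is itself part of that mean, in which members with large changes weigh most, so this order partly restates the calls.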

How the data were processed

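The authors deposited unnormalized read counts per Ensembl gene for 6 libraries. The submitters' processing notes name Trim Galore, featureCounts, edgeR, limma, mm10, GRCh38 and hg38, without roles or versions. The aligner, annotation release, read length, strand setting and treatment of multiply matching reads: not given in the sources used here. Of 49315 IDs, 49056 matched GENCODE M21. The main test was edgeR 4.0.16 under R 4.3.3 (filterByExpr, TMM, glmQLFit, glmQLFTest, group as the only term), with Benjamini-Hochberg adjustment over 13704 genes and calls at 0.05. Each SE came from the log2 fold change and its F statistic. Exact permutation tests used the 6 libraries. Members, lists, pairs and tests were chosen with earlier results of these data known. The text names all members, from each list up to 4 called genes of smallest p, and always Stat2, Irf9, Irf7, Irf1, Usp18, Isg15, Dhx58 and Itga3, with the 5 genes of most similar pattern. Some further genes of the rule are not reported here. The code was checked on simulated counts. Replicate pairs differed beyond sampling noise (chi-square per degree of freedom from 14.5 to 291). Shared stretches of 50, 100 and 150 bases came from GENCODE M21 transcripts. Alternatives were other scalings and filters, DESeq2 1.42.0, limma-voom 3.58.1, a replicate block and each library left out. The mitochondrial share as a covariate was added after seeing the data.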

Additional observations from a re-analysis of the deposited data

How the results depend on the processing

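The number of OAS genes called lower stayed at 4 to 6 under other scalings, filters, DESeq2, limma-voom and the mitochondrial covariate, was 2 to 6 with single libraries left out, and was 1 with the replicate block. With that block, edgeR called 0 signalling genes, keratinocyte markers and melanocyte markers lower and 1 sensor higher. The replicate numbers did not pair the samples (correlation of deviations -0.66, -0.42 and -0.37 for numbers 1, 2 and 3). Across numbers, 3A 1 had 0.49 and 0.54 with Control 2 and Control 3. Control 1 had 0.54 and 0.44 with 3A 2 and 3A 3. The pairs 3A 2 with Control 3 and 3A 3 with Control 2 had -0.42 and -0.30. Deviations were taken from the group means, so these values depend on each other. Oas2 was called in every setting run, and Oas3 in all but the replicate block (adjusted p = 0.052). Over all genes, DESeq2 called 1678 higher and 1887 lower, the replicate block 142 and 146, and leaving out single libraries 346 to 3751 and 318 to 3690. Of the other interferon-stimulated genes, DESeq2 called 18 lower, the replicate block 0 higher and 4 lower, the mitochondrial covariate 2 higher, and single libraries left out gave 0 to 6 higher and 5 to 23 lower. The direction turned in 6 of 134 member values, all for genes that were not called. Oas1c had -0.0040 without Control 2, -0.032 without Control 3 and -0.19 with the mitochondrial covariate, and ranged from -0.032 to 0.23 with single libraries left out. Oasl1 had 0.00022 by library size alone, 0.05 without 3A 3 and 0.13 without Control 1, and ranged from -0.18 to 0.13 with single libraries left out. The causes were not tested. The family difference of -396 CPM was -366 CPM with unscaled totals. With single libraries left out it ran from -424 CPM (without 3A 1) to -381 CPM (without 3A 2). Counts of Oas1f limit what could be seen for that gene.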

Other observations

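The table holds 3 further Oas1 genes within 500 kb of a member, Oas1d, Oas1e and Oas1h. Each had between 0 and 9 counts in every library, and none passed the low-count filter. Genes annotated antisense to Oasl1, Oas2, Oas1c and Oas1f (Gm13822, Gm43068, Gm43069 and Gm22907) had at most 12, 2, 7 and 0 counts in any library, so the rows for these overlaps held few reads beside those of Oasl1, Oas2 and Oas1c.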
